A study of Mus musculus with 6 samples.

Results

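Gene expression in untreated FLICs, cells that the labels describe as ES cells that have differentiated, was compared with that in untreated mouse embryonic stem (ES) cells. The comparison takes 3 of the 6 RNA-seq libraries of the series: the single library of untreated FLICs and both libraries of untreated ES cells, chosen by their labelled cell type and treatment. All 22600 genes of the deposited count table were members, and 15535 of them had enough counts to be tested. Every library came from cells of the C57BL/6 strain plated for 96 h. The 3 untreated libraries are labelled wild-type. The other 3 libraries, 2 of ES cells and 1 of FLICs, are labelled TRF2-/- and were stimulated with OHT for 3 days. No label gives the route or duration of differentiation, the cell line, the allele that responds to OHT, or whether the 2 ES libraries (ESC and ESC2) came from separate cultures, so each p-value reflects spread between libraries alone. Untreated FLICs had no second library. The model therefore assumed that their counts vary as those of the ES cells do.

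Mouse ES cells are kept in a self-renewing state by a circuit of transcription factors built around Pou5f1 (Oct4), Sox2 and Nanog, and they grow as compact colonies joined by E-cadherin. On leaving this state, cells switch the circuit off and start programmes of a germ layer. Cells that become mesenchymal lose epithelial junctions, spread on a matrix of collagen and fibronectin that they secrete, and build contractile actin bundles.

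Levels are CPM, a gene's share of the library's counts, scaled by the composition factors of the edgeR package, and a fold change is FLICs over ES cells. A gene was called when its Benjamini-Hochberg adjusted p in edgeR's quasi-likelihood test was under 0.05. Untreated ES libraries held 32277590 and 38670508 counts and the FLICs library 32302428, so 3 counts, the floor used for genes without reads, correspond to 0.0926 CPM in FLICs. Of the genes tested, 26.2% were called higher in FLICs and 28.7% lower, and the median log2 fold change over all of them was -0.11. The FLICs library had no count for 774 of the genes called lower, and neither ES library had one for 227 of those called higher. Without ES replicate 1 the calls fell to 2506 higher and 2869 lower, and without ES replicate 2 to 2546 and 2845, against 4074 and 4458 with both. Terf2, which encodes the telomere protein TRF2, was at 18.3 and 19.5 CPM in the ES libraries and 8.27 CPM in FLICs, against 0.281 and 0.392 CPM in ES cells and 0.114 CPM in FLICs with OHT, as the labels imply. Its difference between untreated FLICs and ES cells (adjusted p = 0.00905) was not called when either untreated ES library was left out. Each untreated group then has 1 library, and the spread comes from the ES libraries with OHT alone. A call lost in this way, here and below, does not show that a difference rests on 1 ES library. Of the called genes named below, 23 lose the call when 1 of the ES libraries is left out. They include Hoxa2, Rbfox3, Sox17 and Uty, and the others are marked where they are named. The 2 untreated ES libraries differed in Y-linked genes: Eif2s3y, Ddx3y, Uty and Kdm5d together had 49 counts in replicate 1, 0 in replicate 2 and 324 in FLICs. With OHT they had 179 counts in ES replicate 1, 1 in replicate 2 and 684 in FLICs. The part of this in any result below was not tested.

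Markers of ES cells and of mesenchymal cells separated FLICs from both ES libraries. Pou5f1, Sox2, Nanog, Zfp42 and Esrrb were between 99.2 and 1316 CPM in the ES libraries and between 0 and 80.9 CPM in FLICs. Among the mesenchymal markers, Col1a1 (a chain of type I collagen) stood at 0.993 and 1.25 CPM in ES cells and 495 CPM in FLICs. Col3a1 was at 0.0331 and 0.0532 CPM against 422 CPM, and the intermediate filament gene Vim at 397 and 323 CPM against 6173 CPM. Pdgfrb, a receptor that marks fibroblasts and pericytes, was at 1.72 and 1.97 CPM against 71.95 CPM. Thy1 went the other way, with 4.67 and 4.42 CPM in ES cells and 0.556 CPM in FLICs (log2 fold change -3.02 ± 0.44 (SE), adjusted p = 0.00245). The smooth muscle markers divided: Acta2 was at 0.728 and 0.825 CPM in ES cells and 5936 CPM in FLICs, and Tagln at 1.66 and 2.21 CPM against 1194 CPM. Cnn1 was at 0.960 and 1.12 CPM against 5.80 CPM, and Myh11, the myosin heavy chain of mature smooth muscle, was at 0.596 and 0.772 CPM in ES cells and 0.309 CPM in FLICs (log2 fold change -1.14 ± 0.92 (SE), adjusted p = 0.327). Cnn1 was called higher with both ES libraries (adjusted p = 0.0329), with adjusted p = 0.0675 without ES replicate 1 and 0.0552 without replicate 2. By these markers the FLICs library was mesenchymal with high Acta2 and Tagln, without raised Myh11 or Thy1. In bulk samples, fewer cells of a type and less RNA per cell cannot be told apart.

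Ranked by CPM per kilobase of the deposited gene length, the 20 most abundant genes called at least 8-fold higher in FLICs were led by Lgals1 (galectin 1), with 111 CPM per kilobase in ES cells and 5620.1 in FLICs. Acta2 followed at 5249, then Vim at 4416 and Ptn, the secreted growth factor pleiotrophin, at 3804 CPM per kilobase. Ptn was almost silent in ES cells, at 0.497 and 0.506 CPM, against 1982 CPM in FLICs. The remaining genes of these 20 were S100a6, S100a10, Tpm1, Tagln, Anxa1, Serpinh1, Anxa2, Peg10, Clic1, Cdkn2a, Tpm4, Cald1, B2m, Cnn2, Ccn1 and Anxa5. Tpm1, Tpm4, Tagln, Cald1 and Cnn2 encode proteins that bind actin filaments, and the annexins bind membranes. On the ES side the leading genes were Bex1 (2706 CPM per kilobase in ES cells and 109 in FLICs), Dppa5a (1664 and 0.0872), the lipoprotein gene Apoe (1583 and 84.9) and Trh, which encodes thyrotropin-releasing hormone (1267 and 15.7). Trh was also the least even of them between ES libraries, at 1238 and 708 CPM. Mt1 and Mt2 (metal-binding metallothioneins), Trap1a, Stmn2, Bcat1, Mylpf, Upp1, Bex4, Bex2, Epop and Chchd10 were in the same group, beside the pluripotency genes Pou5f1, Nanog, L1td1, Tdh and Mybl2.

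**Figure D1:**
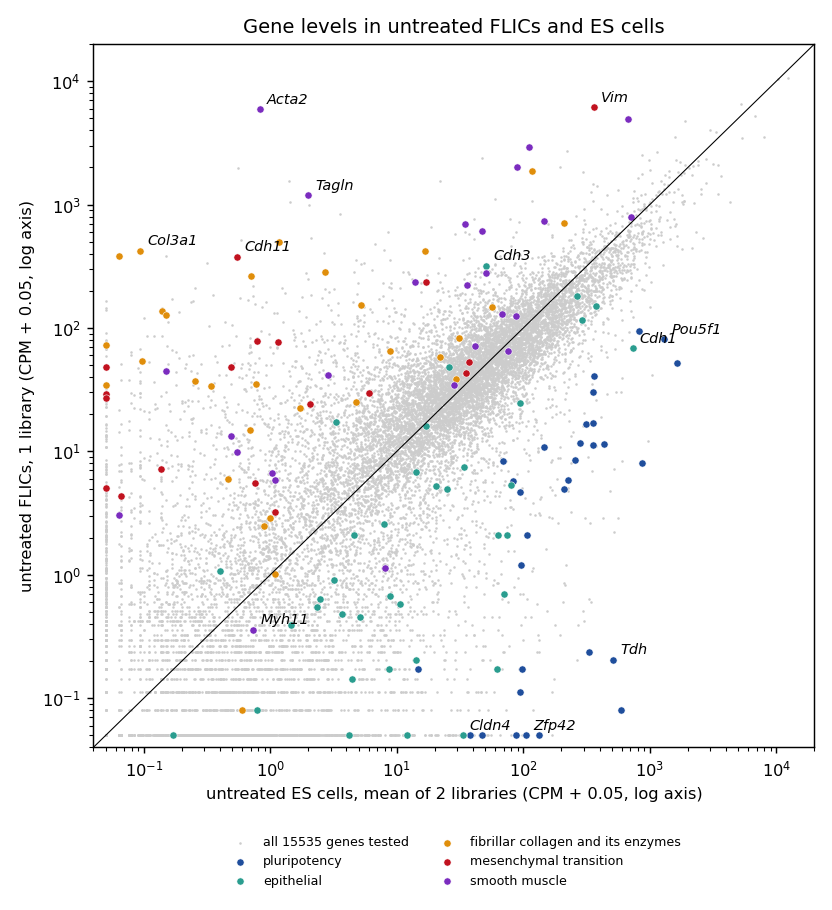
Level of each tested gene in untreated FLICs (vertical axis, 1 library) against the mean of the 2 untreated ES libraries (horizontal axis), both in CPM plus 0.05 on log axes, with 5 gene lists in colour and the line of equal levels. Pluripotency genes lie below the line and most mesenchymal, collagen and smooth muscle genes above it, with Acta2 at 5936 CPM in FLICs.

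The pluripotency circuit was lost as a whole but not to the same depth. All 31 genes of a list of pluripotency factors and markers were called lower in FLICs, with a median log2 fold change of -5.28, where 28.7% of all tested genes were called lower. Their summed level was 10484 and 10369.7 CPM in the ES libraries and 426 CPM in FLICs. What remained in FLICs ranged from 0 to 12.1% of the ES mean. Tfcp2l1, Nr5a2, Zfp42, Tcl1 and Prdm14 had no count in FLICs. Tfcp2l1, a factor of the naive state, was thus at least 1431-fold lower against a floor of 3 counts. Esrrb, another naive factor, kept 0.0561% of its ES level (322 and 339 CPM against 0.185 CPM), and Tdh, the threonine dehydrogenase on which mouse ES cells depend, kept 0.0300% (501 and 528 CPM against 0.154 CPM).

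Other members stayed well above that. Pou5f1 was at 1288 and 1316 CPM in the ES libraries and 80.9 CPM in FLICs, or 6.21% (log2 fold change -4.01 ± 0.21 (SE), adjusted p = 8.21e-05). Sox2 kept 3.20% (347 and 359 CPM against 11.3 CPM) and Nanog 0.928% (878 and 858 CPM against 8.06 CPM). The highest shares were those of Lin28a, an inhibitor of let-7 processing (12.1%), Mybl2, a cell cycle factor active in any dividing cell (11.4%), and Klf5 (11.1%). Utf1 (8.46%), Sall1 (4.80%), Sall4 (2.64%) and L1td1, which encodes an RNA-binding protein (3.18%), lay between these and the silent genes. The FLICs library with OHT had Pou5f1 at 47.3 CPM, Nanog at 4.99, Esrrb at 0.137 and Zfp42 at 0. Lin28a, Sall1, Tfcp2l1, Nr5a2, Tcl1 and Prdm14 were chosen after their values were seen.

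**Figure D2:**
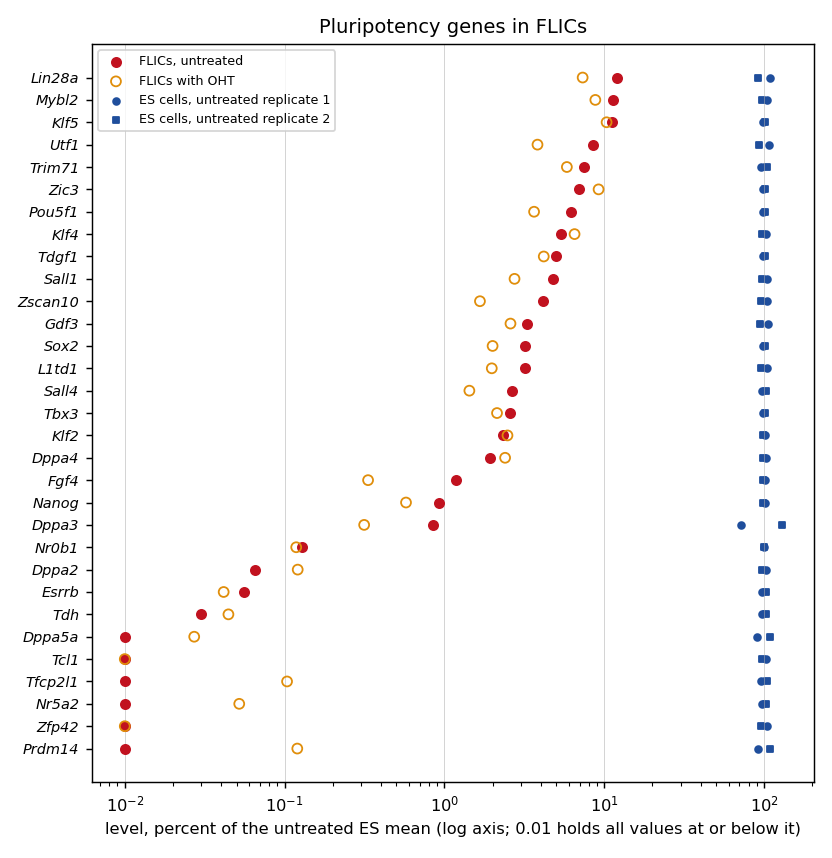
Each pluripotency gene as a percentage of its mean in untreated ES cells (log axis): filled red circles untreated FLICs, open circles FLICs with OHT, blue symbols the 2 untreated ES libraries. The ES libraries lie near 100 for all but Dppa3, while FLICs run from 0 (drawn at 0.01) up to 12.1% for Lin28a.

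Oct4 is known to bind the octamer sequence, and promoter windows of the pluripotency genes were searched for a part of it. The letters TTTGCAT, shorter than the full octamer, were searched on both strands in the 250 bases before each RefSeq start. They were present in 4.12% of all 32851 promoter windows and in 4 of 26 windows (15.4%) of the pluripotency list. Of the 20 pluripotency genes with a window in RefSeq (GRCm38.p6), 3 held them: Nanog, Sox2 and Zfp42. RefSeq gives Nanog a pair of overlapping windows for a pair of starts, and 1 match lies in both and counts in both. The Nanog window is shown since Nanog fell from 878 and 858 to 8.06 CPM. It covers chr6:122707239-122707488, plus strand, and its match, in capitals, starts 75 bases before the upstream start and 151 before the other:
Nanog: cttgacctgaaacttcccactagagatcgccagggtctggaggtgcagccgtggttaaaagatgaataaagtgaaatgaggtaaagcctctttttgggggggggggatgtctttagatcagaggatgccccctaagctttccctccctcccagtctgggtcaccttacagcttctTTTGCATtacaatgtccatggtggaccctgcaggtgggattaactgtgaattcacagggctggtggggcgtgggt
The letters describe the window and do not show binding in these cells.

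Genes of the formative and primed epiblast, the stage that follows the naive state in the embryo, were lower more often than higher. Of 24 tested, 5 were called higher and 13 lower (median log2 fold change -1.70), against 26.2% and 28.7% of all genes. Dnmt3b, a de novo DNA methyltransferase raised in primed cells, was at 174 and 192 CPM in ES cells and 54.5 CPM in FLICs (log2 fold change -1.75 ± 0.21 (SE), adjusted p = 0.00126). The Nodal ligand gene and its inhibitors Lefty1 and Lefty2 fell, with Lefty1 at 73.3 and 58.1 CPM in ES cells and 4.66 CPM in FLICs. The members called higher were Tead2, Sox4, Sall2, Otx2 and Fgf5. Sox4 went from 10.5 and 8.14 CPM to 114 CPM, Otx2 from 0.331 and 0.186 CPM to 6.48 CPM and Fgf5 from 0.232 and 0.266 CPM to 4.57 CPM, the latter both genes that mark the epiblast more closely.

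The epithelial programme of ES cells was taken down while a mesenchymal one was built. Of 37 epithelial junction, keratin and regulator genes tested, 29 were called lower and 3 higher, against 28.7% and 26.2% of all genes. Cdh1, which encodes E-cadherin, was at 778 and 684 CPM in ES cells and 68.7 CPM in FLICs (log2 fold change -3.41 ± 0.27 (SE), adjusted p = 0.000272). Epcam was at 89.1 and 97.97 CPM against 24.7 CPM, and the desmosomal cadherin gene Dsg2 at 65.01 and 75.96 CPM against 0.648 CPM. The protease inhibitors Spint1 and Spint2 and their target protease St14 (matriptase) fell together, with St14 at 71.7 and 77.5 CPM in ES cells and 2.07 CPM in FLICs. Not every junction gene followed: Tjp1 (ZO-1) was at 259.5 and 270.0 CPM against 181 CPM (adjusted p = 0.105). Cdh3, which encodes P-cadherin, rose from 49.1 and 52.3 CPM to 319 CPM (log2 fold change 2.65 ± 0.21 (SE), adjusted p = 0.000284), as did Lsr and Krt19. Lsr was not called without ES replicate 2 (adjusted p = 0.0405 without ES replicate 1 and 0.108 without replicate 2).

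Of 18 genes of the epithelial to mesenchymal transition tested, 16 were called higher and 0 lower, with a median log2 fold change of 6.20 where 26.2% of all tested genes were called higher. The cadherin switch was visible in Cdh2 (N-cadherin), at 16.2 and 17.4 CPM in ES cells and 235 CPM in FLICs, and in Cdh11, a cadherin of mesenchymal cells, at 0.430 and 0.559 CPM against 377 CPM. Among the transcription factors that repress epithelial genes, Snai2 rose from 0.695 and 0.772 CPM to 78.2 CPM and Zeb2 from 1.03 and 1.17 CPM to 76.9 CPM. Snai1, the founding member of the Snail group, went from 5.76 and 6.28 CPM to 29.7 CPM. Zeb1 was at 36.05 and 38.9 CPM in ES cells and 52.4 CPM in FLICs and missed the threshold (adjusted p = 0.0506). The homeobox gene Prrx2 was at 0.364 and 0.506 CPM in ES cells and 48.4 CPM in FLICs. S100a4, a calcium-binding protein often used as a fibroblast marker, went from no count to 48.2 CPM, an increase of at least 1090.1-fold.

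Snail and Zeb proteins are known to bind the E-box CACCTG. These letters or their reverse complement stood in the 250 bases before the start in 17.2% of all promoter windows and in 18 of 29 windows (62.1%) of the epithelial list. Those windows cover 24 of its 37 genes. The windows of Epcam and Cldn4 are shown, with the E-box in capitals, since both genes fell. Cldn4 was chosen by this match after its values were seen. Cldn4, a tight junction claudin at 33.8 and 32.4 CPM in ES cells, had no count in FLICs and was at least 357-fold lower. Epcam lies at chr17:87635729-87635978, plus strand, with E-boxes starting 187 and 19 bases before the start, and Cldn4 at chr5:134946935-134947184, minus strand, with an E-box starting 14 bases before it:
Epcam: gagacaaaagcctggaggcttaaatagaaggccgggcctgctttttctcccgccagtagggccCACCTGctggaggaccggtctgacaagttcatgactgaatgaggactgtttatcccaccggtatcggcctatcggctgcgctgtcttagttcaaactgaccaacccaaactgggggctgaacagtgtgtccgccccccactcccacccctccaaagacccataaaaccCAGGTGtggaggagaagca
Cldn4: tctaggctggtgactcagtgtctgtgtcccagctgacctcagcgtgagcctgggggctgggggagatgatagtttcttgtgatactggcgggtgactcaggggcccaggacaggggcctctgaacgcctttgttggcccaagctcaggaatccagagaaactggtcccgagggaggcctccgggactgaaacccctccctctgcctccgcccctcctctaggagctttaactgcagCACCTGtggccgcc
A match describes the sequence, and whether either site was bound was not tested. Krt7, Krt18 and Lsr also held the letters (genes chosen by this match, after values were seen), and Lsr rose while Krt18 was at 15.4 and 18.5 CPM in ES cells and 16.1 CPM in FLICs.

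**Figure D3:**
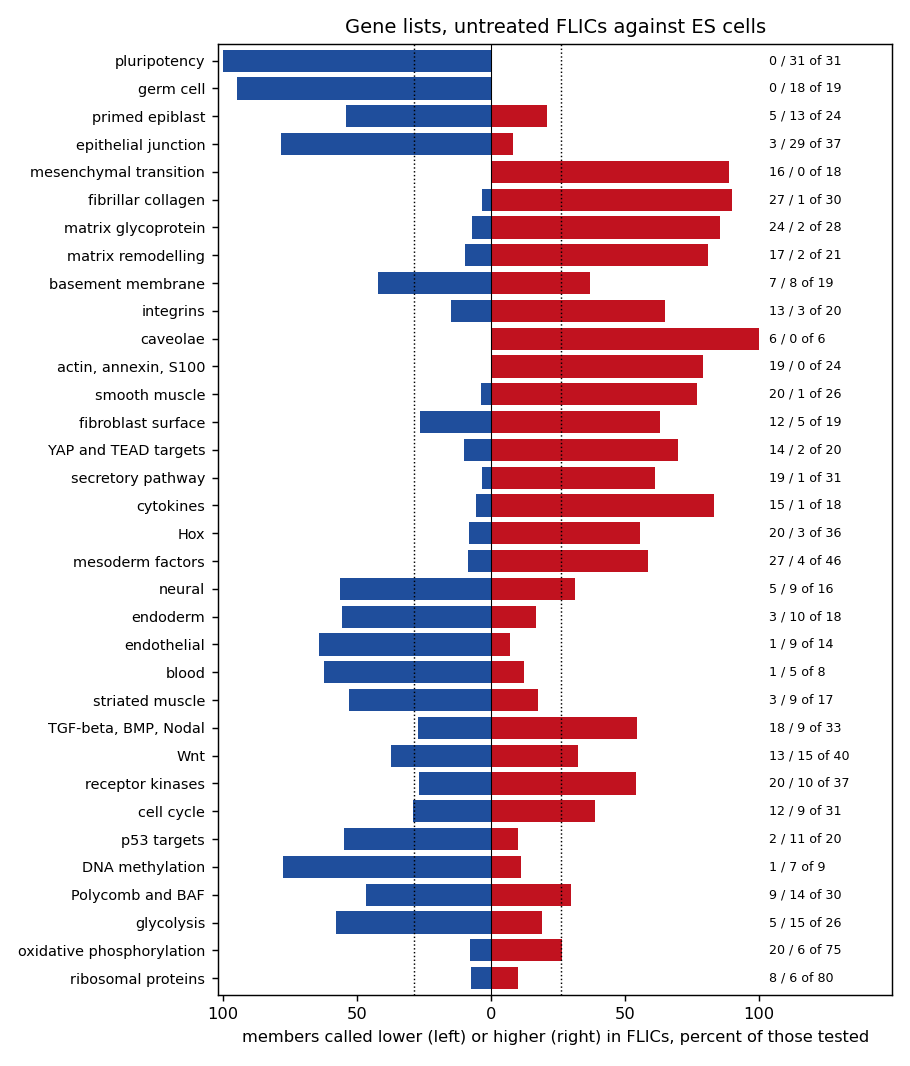
Share of the tested members of each gene list that were called higher (red, right) or lower (blue, left) in untreated FLICs, with the counts higher / lower of tested at the right edge and the shares over all genes as dotted lines (26.2% higher and 28.7% lower). Pluripotency, germ cell, epithelial and DNA methylation genes extend to the left, and mesenchymal, collagen, matrix, caveolae and cytokine genes to the right.

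FLICs switched on an interstitial matrix. Among fibrillar collagens and the enzymes that process them, 27 of 30 tested were called higher (median log2 fold change 4.57), against 26.2% of all genes. Col12a1 was at 0 and 0.0266 CPM in ES cells and 384 CPM in FLICs, and Col5a1 at 14.6 and 18.9 CPM against 419.6 CPM. The collagen chaperone Serpinh1 (HSP47), already made by ES cells at 125 and 109 CPM, reached 1855 CPM, and the crosslinking enzyme gene Loxl2 went from 0.463 and 0.852 CPM to 265 CPM. Col2a1, the collagen of cartilage, was among those higher, at 4.57 and 5.83 CPM in ES cells and 153 CPM in FLICs. The exception was Col14a1, called lower from a level of 0.530 and 0.559 CPM. It had 1 count in FLICs and was not called when either ES library was left out (adjusted p = 0.0522 without ES replicate 1 and 0.0571 without replicate 2) or by DESeq2.

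Of 19 basement membrane genes tested, 7 were called higher and 8 lower, against 26.2% and 28.7% of all genes. Their median log2 fold change was -0.11. The type IV collagens rose: Col4a1 went from 29.4 and 27.9 CPM to 574 CPM and Col4a2 from 8.77 and 8.76 CPM to 353 CPM. Laminin chains moved in opposite directions (Lama1 and Lama3 were chosen after their values were seen). Lama1, the alpha chain of the embryonic laminin 111, fell from 69.5 and 81.7 CPM to 1.51 CPM, and Lama3 from 36.1 and 59.6 CPM to 0.216 CPM. The shared gamma chain Lamc1 fell from 618 and 639.7 CPM to 248 CPM, while Lamb1 rose from 72.4 and 85.6 CPM to 366 CPM. Hspg2 (perlecan) was at 385 and 471 CPM in ES cells and 397 CPM in FLICs (adjusted p = 0.666).

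Of 28 matricellular, proteoglycan and elastic fibre genes, 24 were called higher and 2, Spp1 and Mfap5, lower. Over all genes, 26.2% were called higher and 28.7% lower, the shares to set beside the protease and integrin counts below as well. Fn1 (fibronectin) was abundant in both cell types, at 1884 and 1930.1 CPM in ES cells and 4763 CPM in FLICs (log2 fold change 1.32 ± 0.28 (SE), adjusted p = 0.0103). Thbs1, an activator of latent TGF-beta, rose from 0.927 and 1.81 CPM to 1049.7 CPM, and Tnc (tenascin C) from 0.0662 and 0.133 CPM to 384 CPM. Spp1 (osteopontin) was at 1591 and 1553 CPM in ES cells and 666 CPM in FLICs. Proteases and their inhibitors rose side by side, with 17 of 21 called higher: Mmp2 (gelatinase A) went from 7.68 and 7.67 CPM to 229.7 CPM, its activator Mmp14 from 47.5 and 35.2 CPM to 225 CPM, and the inhibitor gene Timp2 from 1.79 and 1.94 CPM to 277 CPM. The exceptions were Mmp9 and Adam19, called lower. Adam19 was not called when either ES library was left out (adjusted p = 0.0582 without ES replicate 1 and 0.169 without replicate 2). Integrin subunits, the receptors for this matrix, were called higher in 13 and lower in 3 of 20 tests. Itgb1, the shared beta subunit, went from 316 and 275 CPM to 1834 CPM and Itgav from 27.8 and 31.4 CPM to 215 CPM, while Itgb4, the partner of alpha 6 in hemidesmosomes, fell from 17.3 and 25.1 CPM to 0.432 CPM and Itga6 was at 98.5 and 97.9 CPM against 123 CPM (adjusted p = 0.161).

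Genes of the contractile apparatus rose as a group. Of 26 smooth muscle genes and their regulators, 20 were called higher and 1, Des (desmin), lower, against 26.2% and 28.7% of all genes. Their summed level was 2280.2 and 2155 CPM in ES cells and 21122 CPM in FLICs. For Acta2, the smooth muscle actin, the ratio of FLICs to ES levels was 7643 (log2 fold change 12.89 ± 0.25 (SE), adjusted p = 3.87e-05). Acta2 and its close relatives Actg2 and Acta1 may share reads in the counting, so their separate levels are uncertain. Flna (filamin A) rose from 684 and 648 CPM to 4935 CPM, the tropomyosin gene Tpm1 from 121 and 103 CPM to 2907 CPM and Cald1 (caldesmon) from 86.4 and 91.2 CPM to 2031 CPM. Cnn3, the calponin of non-muscle cells, was at 738 and 676 CPM in ES cells and 796 CPM in FLICs (adjusted p = 0.428). Srf, a known transcription factor of contractile genes, was itself at 68.7 and 66.1 CPM against 129 CPM (log2 fold change 0.93 ± 0.16 (SE), adjusted p = 0.00436). Its part in the rise of this group was not tested. Srf was not called when either ES library was left out.

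A further list of actin, annexin, galectin and S100 genes had 19 of 24 called higher and 0 lower, against 26.2% and 28.7% of all genes. The most common actin gene was not called: Actb was at 5412 and 5109 CPM in ES cells and 6573 CPM in FLICs (adjusted p = 0.205), and Pfn1 (profilin) at 1298 and 1284 CPM against 1347 CPM (adjusted p = 0.789). Anxa1, an annexin, rose from 1.52 and 1.17 CPM to 1556 CPM and S100a6 from 1.66 and 2.32 CPM to 996 CPM. All 6 caveolae coat genes tested were called higher. Cav1, the coat protein of caveolae, went from no count to 145 CPM, an increase of at least 3277-fold, and Cavin1 went from 47.5 and 34.2 CPM to 521 CPM. At the nuclear envelope the lamins were exchanged: Lmna (lamin A and C), which is low in stem cells, was at 70.8 and 48.8 CPM in ES cells and 1112 CPM in FLICs, and Lmnb1 at 990.4 and 859 CPM against 267 CPM (log2 fold changes 4.22 and -1.80). The list of 12 envelope genes had 5 called higher and 2 lower, against 26.2% and 28.7% of all genes. Those lower were both B-type lamin genes, and Tmpo, Lbr, Sun1, Syne2 and Lemd3 were not called. The number called higher was 3 without ES replicate 1 and 3 without replicate 2.

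Genes commonly used as targets of YAP and its partner TEAD, which respond to cell spreading, were called higher in 14 and lower in 2 of 20 tests. Over all genes, 26.2% were called higher and 28.7% lower. Ankrd1 was at 0.0993 and 0.0798 CPM in ES cells and 144 CPM in FLICs, Axl (a receptor kinase) at 1.89 and 2.24 CPM against 538 CPM, and Ccn1 at 37.2 and 44.8 CPM against 769 CPM. Ccn2, a matricellular protein, rose from 66.7 and 66.2 CPM to 176 CPM. Nt5e and Dock5 went down, with Nt5e, also a fibroblast surface marker (CD73), at 11.4 and 9.66 CPM against 0.185 CPM. Neither effector was called: Yap1 was at 150.4 and 147 CPM in ES cells and 118 CPM in FLICs (adjusted p = 0.155) and Wwtr1 (TAZ) at 53.5 and 54.1 CPM against 62.8 CPM (adjusted p = 0.402).

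Promoter windows of the contractile and YAP groups were searched for the letters of their known regulators. A CArG box, the site of SRF, stood in 4 of 26 smooth muscle windows (15.4%, from 21 of 26 genes) against 1.47% of all windows, and the TEAD letters GGAATG in 7 of 17 YAP target windows (41.2%, from 15 of 20 genes) against 12.6%. Both were searched on both strands in the 250 bases before the start. The CArG box was searched only as a full match, with nothing but A or T between its CC and GG. Sites with a mismatch were not counted, and a window without a match, such as that of Acta2, may hold them. Srf is shown because it carries a pair of CArG boxes, Myl9 (a regulatory myosin light chain, 2.58 and 3.03 CPM in ES cells and 41.9 CPM in FLICs) because it carries a single box, and Ankrd1 because it carries a pair of TEAD sites and rose from near 0. Srf, Myl9 and Ankrd1 were chosen by this match after their values were seen. Capitals mark the CArG boxes of Srf (chr17:46556163-46556412, minus strand, starting 82 and 62 bases before the start) and Myl9 (chr2:156775214-156775463, plus strand, 161 bases before it) and the TEAD letters of Ankrd1 (chr19:36119845-36120094, minus strand, 210 and 123 bases before it):
Srf: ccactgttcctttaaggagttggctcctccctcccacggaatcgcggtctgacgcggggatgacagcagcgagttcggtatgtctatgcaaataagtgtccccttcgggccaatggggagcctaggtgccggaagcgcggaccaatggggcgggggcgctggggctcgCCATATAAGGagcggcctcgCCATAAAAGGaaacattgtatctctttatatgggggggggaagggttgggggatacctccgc
Myl9: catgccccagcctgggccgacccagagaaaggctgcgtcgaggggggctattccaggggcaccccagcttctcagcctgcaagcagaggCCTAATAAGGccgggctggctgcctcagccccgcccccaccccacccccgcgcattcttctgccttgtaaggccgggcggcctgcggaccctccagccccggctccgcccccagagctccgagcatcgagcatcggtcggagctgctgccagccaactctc
Ankrd1: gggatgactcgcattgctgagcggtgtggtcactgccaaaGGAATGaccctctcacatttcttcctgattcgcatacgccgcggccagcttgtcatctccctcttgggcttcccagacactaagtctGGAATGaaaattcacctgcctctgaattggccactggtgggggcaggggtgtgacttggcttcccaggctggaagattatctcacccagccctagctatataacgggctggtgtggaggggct
The groups are small and their members were chosen with expression results known, so these shares are descriptions.

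Surface proteins by which fibroblasts and stromal cells are sorted gave a mixed pattern. Of 19 tested, 12 were called higher and 5 lower, against 26.2% and 28.7% of all genes. Cd44, the hyaluronan receptor, rose from 0.563 and 0.506 CPM to 521 CPM. Vcam1, an adhesion molecule, reached 164 CPM in FLICs from no count in ES cells. The genes called lower were Eng, Nt5e, Dpp4, Thy1 and Pdgfra. Eng fell from 70.8 and 71.8 CPM to 3.46 CPM, and Pdgfra, the receptor of many embryonic fibroblasts, was near 0 in both, at 0.794 and 1.14 CPM against 0.216 CPM. Pdgfra was not called when either ES library was left out (adjusted p = 0.0678 without ES replicate 1 and 0.148 without replicate 2) or by DESeq2.

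Transcription factors of several territories of the embryo were present at once. Of 46 factors of mesenchyme, limb, somite, heart and kidney tested, 27 were called higher and 4 lower, against 26.2% and 28.7% of all genes. In FLICs, 18 of the 51 in the table were at 10 CPM or more. The number called lower was 1 without ES replicate 1 and 2 without replicate 2. Nr2f2 (COUP-TFII) was at 0.0993 and 0.0798 CPM in ES cells and 85.4 CPM in FLICs, the bone factor Runx2 at 0.0662 and 0.0532 CPM against 53.3 CPM, and the somite and neural crest factor Pax3 at 0.199 and 0.266 CPM against 51.02 CPM. Osr1, a factor of intermediate mesoderm, had no count in ES cells and 32.2 CPM in FLICs, while its paralogue Osr2 fell from 8.74 and 8.81 CPM to 0.0617 CPM. The list as a whole was at 85.99 and 69.7 CPM summed in ES cells and 731 CPM in FLICs.

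Factors of the brain and endoderm stood beside them. Pax6, of eye and brain, was at 2.05 and 1.14 CPM in ES cells and 36.1 CPM in FLICs, and Foxa2, of endoderm and floor plate, at 0.0993 and 0.133 CPM against 66.8 CPM. Dlx2 rose from 0.364 and 0.266 CPM to 59.7 CPM. The neural list summed to 777 and 690.3 CPM in ES cells and 961 CPM in FLICs. Of its 16 members tested, 5 were called higher and 9 lower, against 26.2% and 28.7% of all genes. In FLICs, Nes (nestin, also made by other progenitors) was at 717 CPM, Sox11 at 74.2 CPM and Map2 at 0.710 CPM. Dcx and Rbfox3, genes of neurons, were at 0 and 0 CPM. These levels of single genes are given for FLICs alone and do not tell whether a gene rose or fell. The endoderm list summed to 70.5 and 76.9 CPM in ES cells and 307 CPM in FLICs, led there by Dab2 at 155 CPM and Lrp2 at 73.1 CPM (in ES cells at 2.61 and 2.95 CPM and 39.4 and 45.9 CPM). In this list 3 of 18 tested were called higher and 10 lower, 9 of 22 genes had no count in FLICs, Sox17 and Hnf4a among them, and Afp was at 0.185 CPM. Sox11, Dcx, Rbfox3, Dab2, Lrp2, Sox17, Hnf4a and Afp were chosen after their values were seen.

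Markers of other lineages that a culture could hold were read in the same way. Their part in any result was not tested. Over all genes tested, 26.2% were called higher and 28.7% lower. The endothelial list summed to 158 and 182 CPM in ES cells and 20.1 CPM in FLICs, with 1 called higher and 9 lower of 14 tested. Pecam1, which mouse ES cells also express, fell from 116 and 140.4 CPM to 0.185 CPM and Cdh5 (VE-cadherin) was at 0.0617 CPM in FLICs. The blood list summed to 134 and 142 CPM in ES cells and 16.5 CPM in FLICs, with 1 called higher and 5 lower of 8 tested. In FLICs, 10 of its 15 genes had no count, and Ptprc (CD45) was at 0 CPM. The striated muscle list summed to 124 and 137 CPM in ES cells and 178 CPM in FLICs, of which 158 CPM was Acta1. Of 17 tested, 3 were called higher and 9 lower, with a median log2 fold change of -2.90. The master regulators Myod1 and Myog were at 0 and 0 CPM in FLICs. Bone, cartilage and fat genes summed to 381 and 365 CPM in ES cells and 35.2 CPM in FLICs. Of 10 tested, 4 were called higher and 4 lower. Alpl (alkaline phosphatase, high in ES cells) fell from 349.8 and 327 CPM to 2.59 CPM. Pparg, the fat cell regulator, rose from 0 to 19.3 CPM and was the only member at 10 CPM or more in FLICs. The trophoblast list summed to 256 and 318 CPM in ES cells and 2786 CPM in FLICs, of which 2714 CPM was Peg10, with 4 called higher and 4 lower of 10 tested. Of its other members, Tfap2c fell from 38.2 and 42.5 CPM to 0.278 CPM while Gata3 rose from 5.46 and 7.69 CPM to 46.8 CPM. Peg10, Myod1, Myog, Cdh5 and Ptprc were chosen after their values were seen.

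Hox genes, which encode position along the body axis, were called higher in 20 and lower in 3 of 36 tests, against 26.2% and 28.7% of all genes. Their summed level was 23.8 and 19.8 CPM in ES cells and 265 CPM in FLICs. Per kilobase of deposited length, the highest levels in FLICs were those of 3 neighbours in the Hoxa cluster, Hoxa9 (65.5 CPM per kilobase), Hoxa11 (63.2) and Hoxa10 (49.4), followed by Hoxb9 (30.2) and Hoxb7 (20.01). Hoxa9 was at 0.265 and 0.399 CPM in ES cells and 53.3 CPM in FLICs, and Hoxa10 at 0.728 and 0.532 CPM against 62.1 CPM. Hoxa11 went from no count to 59.4 CPM, an increase of at least 1341-fold. In the Hoxb cluster Hoxb9 rose from 2.09 and 1.97 CPM to 22.7 CPM, and in Hoxc, Hoxc10 from 0.629 and 0.399 CPM to 5.90 CPM. The genes Hoxa2 to Hoxa6 lay between 0.772 CPM (Hoxa4) and 1.70 CPM (Hoxa5) in FLICs. Every Hoxd gene was at or below the 0.463 CPM of Hoxd8 in FLICs, and Hoxd13 (from 2.38 and 1.38 CPM) and Hoxd1 (from 0.331 and 0.506 CPM) were called lower, as was Hoxc13. Hoxd1 was not called without ES replicate 2 (adjusted p = 0.0298 without ES replicate 1 and 0.052 without replicate 2). Antisense transcripts run through these clusters and, since the strand used in counting is not given in the sources used here, their reads cannot be told apart from those of the genes. Hoxa2 to Hoxa6 and Hoxd8 were chosen after their values were seen.

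**Figure D4:**
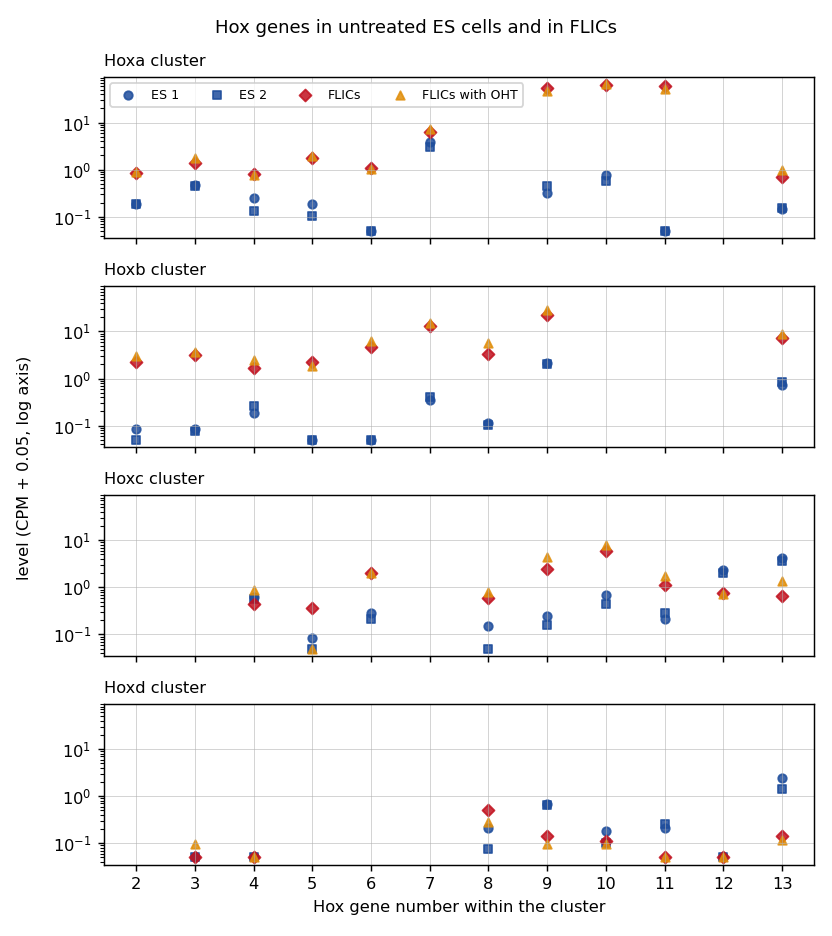
Level of Hox genes (CPM plus 0.05, log axis) by its number within the 4 clusters, in the 2 untreated ES libraries (blue), untreated FLICs (red diamonds) and FLICs with OHT (orange triangles). Hoxa9 to Hoxa11 reach 53.3 to 62.1 CPM in untreated FLICs, while no Hoxd gene exceeds 0.463 CPM there.

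Signalling genes moved in both directions. TGF-beta and BMP family genes were called higher in 18 and lower in 9 of 33 tests, against 26.2% and 28.7% of all genes. The latent TGF-beta binding proteins Ltbp1 (5.06 and 5.30 CPM in ES cells and 328 CPM in FLICs) and Ltbp3 (1.56 and 1.92 CPM against 179.6 CPM) rose while Ltbp4 fell (184 and 158 CPM against 40.6 CPM). Grem1, a secreted BMP inhibitor, rose from 0.132 and 0.240 CPM to 163 CPM, and Id3, a target of BMP signalling, from 27.9 and 25.02 CPM to 149.6 CPM. Foxh1, the partner of SMADs in Nodal signalling, and Pcsk6, a convertase of the Nodal precursor, fell, with Pcsk6 at 81.1 and 79.96 CPM in ES cells and 3.49 CPM in FLICs.

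In the Wnt pathway 13 of 40 genes were called higher and 15 lower, against 26.2% and 28.7% of all genes. Axin2, a known target of beta-catenin, was at 109 and 106 CPM in ES cells and 0.586 CPM in FLICs (log2 fold change -7.51 ± 0.43 (SE), adjusted p = 0.000103), Sp5 went from 25.8 and 21.1 CPM to 0.309 CPM and Notum, an enzyme that inactivates Wnt ligands, from 46.4 and 52.6 CPM to 0.216 CPM (both chosen after their values were seen). Of the receptors, Fzd5 fell from 114 and 96.9 CPM to 9.66 CPM and Fzd10 from 101 and 90.5 CPM to 1.11 CPM, while Fzd2 rose from 7.98 and 9.02 CPM to 109 CPM and Fzd6 from 9.14 and 8.06 CPM to 124 CPM. Wnt5a, a ligand that mostly acts without beta-catenin, rose from 0.199 and 0.133 CPM to 50.7 CPM. The co-receptor gene Lrp6 was at 102 and 93.9 CPM in ES cells and 97.5 CPM in FLICs (adjusted p = 0.995).

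Of 37 receptor, ligand and feedback genes of growth factor signalling, 20 were called higher and 10 lower, against 26.2% and 28.7% of all genes. Kit, the receptor of stem and germ cells, was at 98.7 and 108 CPM in ES cells and 0.401 CPM in FLICs, and Erbb3 at 88.2 and 93.8 CPM against 0.895 CPM. Fgf4, the growth factor that ES cells make, fell from 97.3 and 95.2 CPM to 1.14 CPM. Egfr rose from 2.02 and 2.98 CPM to 81.2 CPM and Vegfa, the vascular growth factor, from 6.59 and 7.16 CPM to 115 CPM. Dusp6, a feedback gene of the ERK pathway, rose from 20.3 and 18.9 CPM to 118 CPM while Spry2, another, fell from 90.9 and 82.1 CPM to 43.2 CPM. Spry2 was not called without ES replicate 1 (adjusted p = 0.0751 without ES replicate 1 and 0.0464 without replicate 2). Fgfr1 was at 152 and 140.4 CPM in ES cells and 185 CPM in FLICs (adjusted p = 0.293). Of 19 Notch and Hedgehog genes, 3 were called higher (Smo, Hes1 and Gli3) and 8 lower. Jag2 went from 34.2 and 30.4 CPM to 2.10 CPM and Notch4 from 28.8 and 38.9 CPM to 0.556 CPM.

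Cdkn2a, the locus of the inhibitors p16 and p19 ARF, whose transcripts the table does not separate, was at 38.9 and 35.96 CPM in ES cells and 580.3 CPM in FLICs (log2 fold change 3.96 ± 0.17 (SE), adjusted p = 4.55e-05). Its neighbour Cdkn2b (p15) was at 1.36 and 1.38 CPM against 40.96 CPM and Cdkn1b (p27) at 25.6 and 18.7 CPM against 116 CPM. Cdkn1a (p21) moved the other way, at 37.4 and 37.3 CPM in ES cells and 1.79 CPM in FLICs (log2 fold change -4.38 ± 0.44 (SE), adjusted p = 0.000618). Among cyclins, Ccnd2 rose from 3.11 and 1.81 CPM to 52.4 CPM, and Ccnd3 and Ccne1 fell, Ccne1 from 300.3 and 245 CPM to 74.6 CPM. Neither of the cell division genes Cdk1 and Ccna2 was called: Cdk1 was at 196 and 198 CPM in ES cells and 265 CPM in FLICs (adjusted p = 0.0685) and Ccna2 at 439 and 371 CPM against 395 CPM (adjusted p = 0.882). Of the 31 genes of this list, 12 were called higher and 9 lower, against 26.2% and 28.7% of all genes. The number higher was 8 without ES replicate 1 and 7 without replicate 2, and the number lower 5 without ES replicate 1 and 6 without replicate 2. Cdkn2b and Ccnd2 were chosen after their values were seen.

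Trp53, the gene of p53, was at 299 and 345 CPM in untreated ES cells and 8.98 CPM in untreated FLICs (log2 fold change -5.16 ± 1.45 (SE), adjusted p = 0.0267), a fold change of 35.8 in favour of ES cells. The ES libraries with OHT, which share the fit and its estimate of the spread, differed from each other and from the untreated ones, at 8.39 and 83.1 CPM. FLICs with OHT were at 7.82 CPM. No label mentions a change in Trp53. Of 20 genes in a list of Trp53 and its usual targets, 11 were called lower and 2 higher, the latter being Plk2 and Fas, with 28.7% of all tested genes called lower. Sesn2 was at 75.9 and 79.9 CPM in ES cells and 3.98 CPM in FLICs, Zmat3 at 43.7 and 42.9 CPM against 10.96 CPM, and Mdm2, the ligase that limits p53, at 182 and 202 CPM against 95.3 CPM (adjusted p = 0.318). Plk2 rose from 33.5 and 41.1 CPM to 277 CPM. Plk2 was not called without ES replicate 1 (adjusted p = 0.065 without ES replicate 1 and 0.0492 without replicate 2) or by DESeq2. Whether the targets followed the level of Trp53 was not tested.

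**Figure D5:**
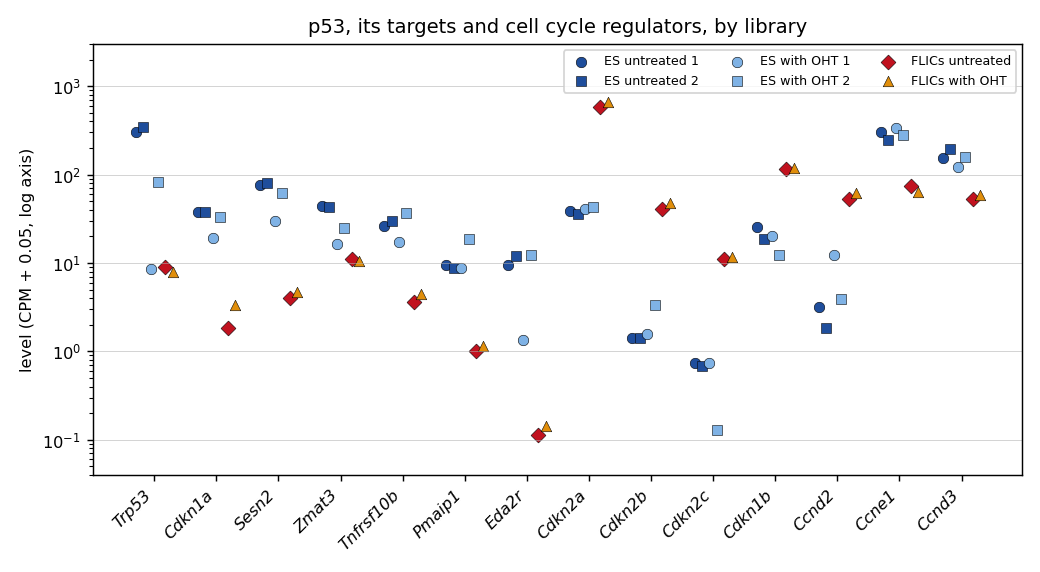
Level of Trp53, 6 of its targets and 7 cell cycle regulators in each of the 6 libraries (CPM plus 0.05, log axis; some genes were picked for display after their values were seen). FLICs lie below the untreated ES libraries for Trp53 and the 6 targets drawn. Plk2 and Fas, the targets called higher in FLICs, are not drawn. FLICs lie above the untreated ES libraries for Cdkn2a, Cdkn2b, Cdkn2c, Cdkn1b and Ccnd2. For Trp53 the first ES library with OHT (8.39 CPM) lies at the level of FLICs.

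Of 9 DNA methylation genes, 7 were called lower and 1 higher, against 28.7% and 26.2% of all genes. Dnmt3l, a cofactor of de novo methylation, was at 282 and 244 CPM in ES cells and 0.154 CPM in FLICs, and Tet1, an enzyme that oxidises methylcytosine, at 287 and 327 CPM against 2.81 CPM. Tet2 fell from 298 and 307 CPM to 20.3 CPM while Tet3 rose from 13.1 and 14.7 CPM to 61.7 CPM. The maintenance enzyme Dnmt1 was at 628 and 585 CPM against 281 CPM (log2 fold change -1.11 ± 0.28 (SE), adjusted p = 0.0178), its cofactor Uhrf1 at 757 and 663 CPM against 254 CPM, and Tdg at 54.02 and 45.6 CPM against 27.1 CPM. Dnmt1 (adjusted p = 0.0707 without ES replicate 1 and 0.0529 without replicate 2) and Tdg (adjusted p = 0.124 without ES replicate 1 and 0.0519 without replicate 2) were not called when either ES library was left out. Dnmt3a, at 65.1 and 59.9 CPM against 33.2 CPM, just missed the threshold (adjusted p = 0.054).

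Polycomb and BAF remodeller subunits were called lower in 14 and higher in 9 of 30 tests, against 28.7% and 26.2% of all genes. Accessory subunits of Polycomb repressive complex 2 were among those that fell, with Epop at 440.5 and 527 CPM in ES cells and 4.69 CPM in FLICs and Jarid2 at 391 and 424 CPM against 18.95 CPM, whereas the catalytic subunit Ezh2 was at 409 and 322 CPM against 266 CPM (adjusted p = 0.277). The BAF subunit Smarcc1, typical of the ES cell complex, fell from 528 and 491 CPM to 265 CPM, and Smarcc2, its counterpart in differentiated cells, rose from 55.6 and 51.3 CPM to 131 CPM. Smarcc1 was not called when either ES library was left out (adjusted p = 0.119 without ES replicate 1 and 0.0883 without replicate 2). The number of Polycomb and BAF genes called higher was 6 without ES replicate 1 and 4 without replicate 2. Among 19 splicing regulators, 6 were called higher and 10 lower. The number lower was 5 without ES replicate 1 and 4 without replicate 2. Mbnl1, which opposes ES-type splicing, rose from 10.3 and 10.8 CPM to 58.6 CPM and Mbnl2 from 6.82 and 8.46 CPM to 81.1 CPM. The epithelial regulators Esrp1 and Esrp2, chosen after their values were seen, fell, Esrp1 from 7.61 and 8.01 CPM to 2.53 CPM and Esrp2 from 15.7 and 12.7 CPM to 6.79 CPM. Esrp2 was not called when either ES library was left out (adjusted p = 0.133 without ES replicate 1 and 0.056 without replicate 2).

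Metabolic genes moved in both directions, where 26.2% of all tested genes were called higher and 28.7% lower. Of 26 genes of glucose uptake and glycolysis, 15 were called lower and 5 higher, with a median log2 fold change of -1.02. The number lower was 10 without ES replicate 1 and 9 without replicate 2, and the number higher 3 without ES replicate 1 and 3 without replicate 2. Slc2a3, the high-affinity glucose transporter GLUT3, was at 533 and 555 CPM in ES cells and 30.3 CPM in FLICs, and Hk2 (hexokinase 2) at 481 and 432 CPM against 58.4 CPM. Pkm (pyruvate kinase) fell from 3819 and 3443 CPM to 1706 CPM. Tpi1 rose from 219.8 and 201 CPM to 384 CPM and Pdk4, which holds pyruvate back from mitochondria, from 2.35 and 2.40 CPM to 44.3 CPM. Tpi1 was not called when either ES library was left out (adjusted p = 0.0834 without ES replicate 1 and 0.125 without replicate 2) and Pkm not without replicate 1 (adjusted p = 0.056 without ES replicate 1 and 0.0358 without replicate 2). Nuclear genes of oxidative phosphorylation had a median log2 fold change of 0.15, with 20 of 75 called higher and 6 lower. The share called higher was near that of all genes. For 80 ribosomal protein genes the median was -0.03, with 8 higher and 6 lower. Most calls in the oxidative phosphorylation and ribosomal protein lists were lost when either untreated ES library was left out. The spread then came from the ES libraries with OHT alone. In threonine and glycine metabolism, Amt fell from 163 and 176 CPM to 8.52 CPM beside Tdh, while Phgdh, the entry into serine synthesis, rose from 91.03 and 92.1 CPM to 279 CPM. 7 of 18 genes of that list were called lower and 4 higher. The number higher was 1 without ES replicate 1 and 1 without replicate 2.

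Genes of the secretory pathway rose, with 19 of 31 genes called higher and 1, Ssr2, lower, at a median log2 fold change of 0.70. Over all genes, 26.2% were called higher and 28.7% lower. The number higher was 9 without ES replicate 1 and 10 without replicate 2, and Ssr2 was not called when either was left out (adjusted p = 0.146 without ES replicate 1 and 0.117 without replicate 2). Hspa5 (BiP), the main chaperone of the endoplasmic reticulum, was at 1003 and 963 CPM in ES cells and 2284 CPM in FLICs. Surf4, a cargo receptor, went from 75.1 and 76.4 CPM to 259 CPM. Creb3l1, a transcription factor for secretion of collagen, rose from 5.86 and 5.06 CPM to 111 CPM (log2 fold change 4.35 ± 0.17 (SE), adjusted p = 4.22e-05). Surf4 and Creb3l1 were chosen after their values were seen.

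Of 18 cytokine, chemokine and receptor genes, 15 were called higher and 1, Icam1, lower, against 26.2% and 28.7% of all genes. Ptgs2 (cyclooxygenase 2) was at 0.530 and 0.719 CPM in ES cells and 499 CPM in FLICs, Csf1, the growth factor of macrophages, at 0.265 and 0.266 CPM against 336 CPM, and Cxcl12 at 0.0331 and 0.0798 CPM against 86.7 CPM. Icam1 fell from 43.4 and 41.3 CPM to 2.69 CPM. Of 10 genes of class I antigen presentation, 3 were called higher and 2 lower, shares near those of all genes (26.2% and 28.7%). The number higher was 2 without ES replicate 1 and 2 without replicate 2, and the number lower 1 without ES replicate 1 and 1 without replicate 2. B2m, the light chain, rose from 20.4 and 22.1 CPM to 281 CPM, while the heavy chain genes H2-K1, at 41.5 and 46.05 CPM against 4.82 CPM, and H2-D1, at 22.9 and 22.7 CPM against 11.6 CPM, fell. These heavy chain genes are near copies of each other, and reads may be shared between them. Tapbp and Irf1 rose. H2-D1 (adjusted p = 0.0801 without ES replicate 1 and 0.0775 without replicate 2) and Irf1 (adjusted p = 0.0921 without ES replicate 1 and 0.096 without replicate 2) were not called when either ES library was left out. The genes Psmb10, Tap1, Tap2, Psmb8 and Psmb9 were not called. Nlrc5 was not tested. Of 19 sensing and interferon genes, 4 were called higher and 5 lower, no larger a share in either direction than the 26.2% and 28.7% of all genes. The RNA sensor gene Ddx58 (RIG-I) fell from 83.7 and 74.95 CPM to 18.8 CPM, and Oas1a from 21.3 and 29.6 CPM to 0.

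Germ cell genes, which methylation keeps silent in somatic cells, fell as a group. Of 19 tested, 18 were called lower and 0 higher, where 28.7% of all genes were called lower. The list summed to 431 and 553 CPM in ES cells and 11.02 CPM in FLICs, and 9 members had no count there. Tex19.1, a suppressor of retrotransposons, was at 146 and 208 CPM in ES cells and 0.340 CPM in FLICs. Imprinted genes were called higher in 10 and lower in 5 of 21 tests, against 26.2% and 28.7% of all genes. Peg10 rose from 193 and 247 CPM to 2714 CPM, Peg3 from 194 and 194 CPM to 2026 CPM, and Nnat from 7.61 and 5.03 CPM to 295 CPM. Plagl1 fell from 161 and 164 CPM to 5.06 CPM and Igf2r, which clears the growth factor IGF2, from 123 and 139 CPM to 10.1 CPM. Sgce, the neighbour of Peg10, rose from 2.91 and 3.14 CPM to 111 CPM. Imprinted RNAs such as H19 and Meg3 were not analysed here.

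With OHT, 28.4% of the tested genes were called higher in FLICs than in ES cells and 29.3% lower. These libraries are other samples than the untreated ones but enter the same fit. Of the genes called higher untreated, 89.5% were also called higher with OHT (82.7% of the OHT calls), and of those called lower, 83.3% (81.5%). Only 3 genes were called in opposite directions. The difference between the comparisons, tested as an interaction, was called for 0 genes in edgeR's quasi-likelihood test, with 1057 at an unadjusted p under 0.05. Each treatment had a single FLICs library, so a count of 0 does not show that the comparisons are alike. The FLICs library with OHT had Acta2 at 7921 CPM, Col1a1 at 881, Cdh1 at 63.7, Hoxa10 at 64.4 and Cdkn2a at 665 CPM.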

How the data were processed

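The deposited table holds one count per gene and library, with gene length. Per the submitters' processing notes, Salmon, DESeq2 and GRCm38 were used, with versions and settings not given in the sources at hand. Deposited lengths are mostly coding lengths (77.6% are multiples of 3). Symbols and promoter windows came from RefSeq (GRCm38.p6). The counts of all 6 libraries were filtered by edgeR's filterByExpr, scaled with TMM factors and fitted with glmQLFit, with a mean for each of 4 groups (edgeR 4.0.16, R 4.3.3). The contrast was tested with glmQLFTest and Benjamini-Hochberg adjustment at 0.05. The procedure was also run on simulated counts in which few genes changed and FLICs varied as the fit assumes. That run cannot probe the real spread of the single FLICs library or the scaling under changes as wide as these. The members and gene lists were chosen with earlier results of these data known. Genes named were, per list, up to 10 members by the higher group mean, members called against the list's majority and all members of lists of up to 12, then the 20 most abundant called at least 8-fold in each direction, Terf2 and Trp53; others carry a remark. Alternatives were other scalings, filters, DESeq2 1.42.0, fewer libraries, a replicate block and glmTreat in edgeR with limma 3.58.1. The untreated ES libraries differed beyond sampling noise and were counted as 2. Some genes are not reported here.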

Additional observations from a re-analysis of the deposited data

How the results depend on the processing

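Leaving out each ES library in turn gave 2506 to 5685 genes called higher untreated and 2845 to 6407 lower, with the low ends without an untreated ES library and the high ends without an ES library with OHT. In the former case each untreated group has a single sample, assumed to vary like the ES cells with OHT. Against a fold change of at least 2 (glmTreat), 2229 genes were called higher and 2528 lower untreated, and 2334 and 2710 with OHT. Other scalings, filters and DESeq2, and the fit of the 3 untreated libraries alone, kept all 4 counts within 1.5 times, except that this last fit gives no value with OHT. No gene called untreated changed direction under any alternative run. Of the 242 called genes named above, DESeq2 kept 236 and lost Col14a1, Hoxa2, Pdgfra, Plk2, Rbfox3 and Sox17. The share of calls that were higher ranged from 46.6% to 50.95%. The replicate numbers pair ES libraries only, with a correlation of their deviations of 0.345 over 2 pairs, which share no label beyond the number. Libraries numbered 1 had 49 and 179 Y-linked counts and those numbered 2 had 0 and 1. With the replicate block, 4396 genes were called higher and 4964 lower untreated, and 4781 and 4976 with OHT, and all 242 called genes named kept their call. The single FLICs library leaves its own spread unmeasured. Genes under about 0.0926 CPM in FLICs cannot be told from silent ones at this depth.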

Other observations

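These families were chosen after their values were seen, and no test was made of any family as a group. Over all genes tested, 26.2% were called higher and 28.7% lower. Clustered protocadherins, cell surface cadherins best known from neurons, were more active in FLICs. Of 22 genes of the gamma cluster tested, 13 were called higher and 2 lower, and their summed level was 61.96 and 59.4 CPM in the ES libraries and 286 CPM in FLICs. Gamma transcripts share their last exons, so their reads may be split between members. Of 14 beta cluster genes tested, 13 were called higher and 0 lower. Class 3 semaphorins, secreted guidance proteins, were called higher in 5 of 7 tests, and their sum went from 10.4 and 11.5 to 266 CPM. The Irx homeobox genes had 4 of 5 called higher and 1 lower.

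Other families fell. A cluster of zinc finger genes on chromosome 4 had 17 of 18 members called lower and 0 higher, with a sum of 3265 and 3571 CPM in ES cells and 96.3 CPM in FLICs. These genes are close copies of each other, so the split between members is uncertain. The metallothioneins summed to 718 and 689 CPM in ES cells and 32.6 CPM in FLICs, with 3 of 4 called lower. The Rhox homeobox genes, clustered on the X chromosome and active in reproductive tissue, had 7 of 13 called lower and a sum of 133 and 161 CPM in ES cells and 3.95 CPM in FLICs. Among amino acid transporters of the Slc7a family, 7 of 10 were called lower and 1 higher.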
